A study of Homo sapiens with 8 samples.

Results

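The genes described here are 10 genes of bone morphogenetic protein (BMP) signalling: the inhibitor-of-differentiation genes ID1, ID2, ID3 and ID4, the ligands BMP2 and BMP4, the receptor BMPR2, the signal transducers SMAD6 and SMAD9, and the secreted inhibitor GREM1. They were chosen by symbol, each matched 1 row, and they are 10 of the 60623 genes in the table. Poly(A) RNA was sequenced from ARPE-19 cells, an established human line derived from the retinal pigment epithelium, the layer that supports the photoreceptors. The combination group received 200 µg/mL of a diesel exhaust reference material, which the labels call PM2.5, together with 400 µg/mL fucoidan, a sulfated polysaccharide from the brown seaweed Fucus vesiculosus. The particulate group received the diesel material alone at 200 µg/mL, the fucoidan group received fucoidan alone at 400 µg/mL, and the control group received phosphate-buffered saline. Exposure lasted 24 h in every group, and each of the 4 groups had 2 libraries, so every mean has n = 2. All groups grew in serum-containing medium, and serum is itself a source of BMP activity. The particulate stock was made in DMSO and no library received DMSO alone, so the particles and their solvent cannot be told apart.

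BMPs are secreted dimers that bring together type I and type II receptors, and the type I receptor then phosphorylates SMAD1, SMAD5 and SMAD9, which enter the nucleus with SMAD4. ID1, ID2 and ID3 are among the best known transcriptional targets of these SMADs, and SMAD6 is a target that feeds back to inhibit the pathway. ID proteins have a helix-loop-helix domain but no DNA-binding region, and they hold E proteins such as TCF3, TCF4 and TCF12 away from DNA. In the eye, BMP4 is known for its part in the specification of the pigment epithelium, and BMPs are made by the pigment epithelium of the adult.

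The sequences just before the starts of ID1 to ID4 are shown because ID2 and ID3 had the largest fold changes among the 10 in particulate against control, and because 3 of the 4 share a core promoter element. Each line gives the 30 bases from 50 to 21 bases before the start, 5′ to 3′ on the gene's strand, from RefSeq on GRCh38.p14. They lie at chr20:31605239-31605268 (plus strand) for ID1, chr2:8682006-8682035 (plus strand) for ID2, chr1:23559522-23559551 (minus strand) for ID3 and chr6:19837320-19837349 (plus strand) for ID4. Capitals mark TATAA on the gene's strand.
ID1: ccgggggccgtggcgtgttTATAAaagaca
ID2: tgtggccccggcgagtgcggataaaagccg
ID3: gcgtgccttccaggcaggctcTATAAgtga
ID4: cgcccccggggcgcacggctcTATAAatac
TATAA began 31 bases before the start of ID1 and 29 bases before the starts of ID3 and ID4, and ID2 had none in its last 50 bases. Of all 35116 promoters of the same table, 4.74% had TATAA in the last 50 bases. All windows here lie before the RefSeq start. GENCODE 29 starts ID2 and ID3 further upstream, and the 250 bases before the RefSeq start lie within its exons for 202 bases in ID2 and all 250 in ID3. TATAA and CCAAT were searched after the sequences had been read.

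Whole windows of 250 bases are shown for SMAD6, BMP4 and ID1, 1 gene of each role that was lower with particulate, with the elements found in them in capitals. The elements GTCTAGAC, CAGACA and GGCGCC are known to be bound by SMADs, the last being the GC-rich form recognised by SMAD1 and SMAD5. The windows lie at chr15:66701986-66702235 (plus strand) for SMAD6, chr14:53955051-53955300 (minus strand) for BMP4 and chr20:31605039-31605288 (plus strand) for ID1, on GRCh38.p14 from RefSeq.
SMAD6: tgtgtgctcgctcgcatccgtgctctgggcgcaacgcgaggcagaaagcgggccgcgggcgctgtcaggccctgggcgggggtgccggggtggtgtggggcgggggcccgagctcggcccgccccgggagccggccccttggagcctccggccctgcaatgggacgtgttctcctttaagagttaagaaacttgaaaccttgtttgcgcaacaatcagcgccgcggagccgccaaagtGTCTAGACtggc
BMP4: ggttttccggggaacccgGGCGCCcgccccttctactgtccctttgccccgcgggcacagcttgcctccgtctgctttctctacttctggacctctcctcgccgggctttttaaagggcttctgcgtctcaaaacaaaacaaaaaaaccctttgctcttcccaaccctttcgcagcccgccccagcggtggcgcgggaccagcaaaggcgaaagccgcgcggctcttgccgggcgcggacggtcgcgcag
ID1: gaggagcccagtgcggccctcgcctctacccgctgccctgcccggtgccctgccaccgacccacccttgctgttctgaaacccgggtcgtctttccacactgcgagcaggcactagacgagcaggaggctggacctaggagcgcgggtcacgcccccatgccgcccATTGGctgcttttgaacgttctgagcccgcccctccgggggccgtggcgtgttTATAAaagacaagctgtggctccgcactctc
SMAD6 held GTCTAGAC, 12 to 5 bases before its start, an element found in 0.182% of the 35116 promoters. GENCODE 29 starts SMAD6 at 66702228 and has 8 exon bases in this window, so its start falls within the element. BMP4 held GGCGCC, 232 to 227 bases before its start, which 16.4% of promoters held. GENCODE 29 starts BMP4 further upstream, at 53958761, so this window lies within that gene, with 0 bases in its exons. The capitals in ID1 are CCAAT read on the opposite strand, 84 to 80 bases before the start and present in 32.0% of promoters, and TATAA. The windows of ID1, ID2, ID3 and ID4 held no GGCGCC, no GTCTAGAC, no CAGACA (13.6% of promoters) and no TGACGTCA (1.65%), the cyclic-AMP element. All searches covered both strands except that for TATAA, and CAGACA can overlap GTCTAGAC. Promoters were matched by symbol for 9 of the 10 genes, all but BMP2. BMPR2, not called with particulate, held GGCGCC 147 to 142 bases and CAGACA 103 to 98 bases before its start. GREM1, not tested, held GGCGCC 83 to 78 and 52 to 47 bases and CAGACA 196 to 191 bases before its start. These elements were thus not limited to the genes that were lower with particulate. In mouse Id1 the known BMP-responsive elements lie further upstream than such a window.

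The library totals ran from 12993565 to 17019284 reads, and the 10 genes took 0.0159% to 0.0480% of them. Genes at least 2-fold apart between replicates made up 11.3% of those tested in the combination, 3.55% with particulate, 1.55% with fucoidan and 1.61% in control. In a list of 10 glycolysis and hypoxia genes, described below, combination replicate 1 had the highest sum of the 8 libraries and replicate 2 the lowest. Of 12 pigment epithelium markers, 7 reached a mean of 1 TPM (the deposited level per length) in every group, while RPE65, a defining enzyme of the visual cycle, had 2 reads in all libraries together. Marker lists of photoreceptors (2 reads in all libraries), endothelium (31) and leukocytes (20) were near 0. Of 4 Mueller glia markers, VIM and GLUL, which many cell types express, were at 1 TPM or more in every group, and GFAP (3 reads) and AQP4 (0) were at or near 0. The submitters call the libraries independent biological replicates and do not say whether passages or days differed, so the p-values measure the spread between such libraries of a single cell line.

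Levels below are TMM-normalised counts (CPM, scaled to library size), given as replicate 1 and replicate 2. Each log2 fold change carries the standard error (SE) of edgeR's quasi-likelihood test, fitted to all 8 libraries. The p-values are Benjamini-Hochberg adjusted over the 15010 genes tested, with 0.05 as the threshold for a call. An exact permutation test of 2 libraries against 2 cannot go below p = 0.333, so single genes rest on that fit.

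With particulate, all 4 ID genes fell, ID2 and ID3 by more than 3 on the log2 scale and ID1 and ID4 by less than 2. The difference between the genes was not tested. ID3 (ENSG00000117318, chr1:23557918-23559794, GENCODE 29 on GRCh38, as for all gene positions here) was the most abundant of them per length in control, at 274 ± 14.5 TPM (SD). ID3 had 7.06 and 11.4 CPM in the combination, 15.1 and 8.0 CPM with particulate, 70.0 and 76.7 CPM with fucoidan, and 115 and 111 CPM in control. All 4 libraries with particulate were below all 4 without it, and the 2 sets were separated by a wide gap. ID3 fell by 3.29 ± 0.31 on the log2 scale in particulate against control, 9.76-fold lower (adjusted p = 0.000132, edgeR).

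ID2 (ENSG00000115738, chr2:8678845-8684453), which in neural and immune lineages also restrains E proteins, had the same split. ID2 had 5.73 and 3.06 CPM in the combination, 3.69 and 4.03 CPM with particulate, 19.3 and 21.4 CPM with fucoidan, and 31.3 and 33.7 CPM in control. ID2 fell by 3.07 ± 0.27 in particulate against control, 8.41-fold lower (adjusted p = 9.86e-05, edgeR). Its exons overlap the antisense gene ID2-AS1, and no source used here gives the strand setting of the read counting, so reads of that gene may be included.

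ID1 (ENSG00000125968, chr20:31605283-31606515), the family member most used as a readout of BMP signalling, fell less with particulate alone. ID1 had 6.20 and 13.1 CPM in the combination, 28.0 and 22.7 CPM with particulate, 40.2 and 42.1 CPM with fucoidan, and 63.3 and 55.0 CPM in control. None of the 4 groups overlapped with another, in the order control, fucoidan, particulate, combination from high to low. ID1 fell by 1.22 ± 0.28 in particulate against control (adjusted p = 0.0146, edgeR), a call that was lost when any 1 of the 4 libraries compared was left out (adjusted p up to 0.127, log2 fold change -1.35 to -1.08 over all 8 such fits).

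ID4 (ENSG00000172201, chr6:19837386-19840684), known for roles in neural and stem cells, had the lowest level of the 4 in control, at 21.5 ± 1.5 TPM (SD). ID4 had 13.1 and 10.4 CPM in the combination, 8.19 and 9.59 CPM with particulate, 15.1 and 15.3 CPM with fucoidan, and 21.3 and 24.6 CPM in control. No group overlapped with another here either, but the combination lay above particulate, unlike in ID1. ID4 fell by 1.37 ± 0.20 in particulate against control (adjusted p = 0.00135, edgeR).

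The summed level of the 4 ID genes was 55.1 and 89.0 TPM in the combination, 123 and 108 TPM with particulate, 353 and 363 TPM with fucoidan, and 547 and 498 TPM in control. In bulk RNA, fewer cells with the transcript and less transcript per cell cannot be told apart. The 4 genes did not keep 1 ratio to each other: per length, ID3 was below ID1 with particulate (27.2 and 73.3 TPM) and above it in control (274 and 174 TPM).

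**Figure D1:**
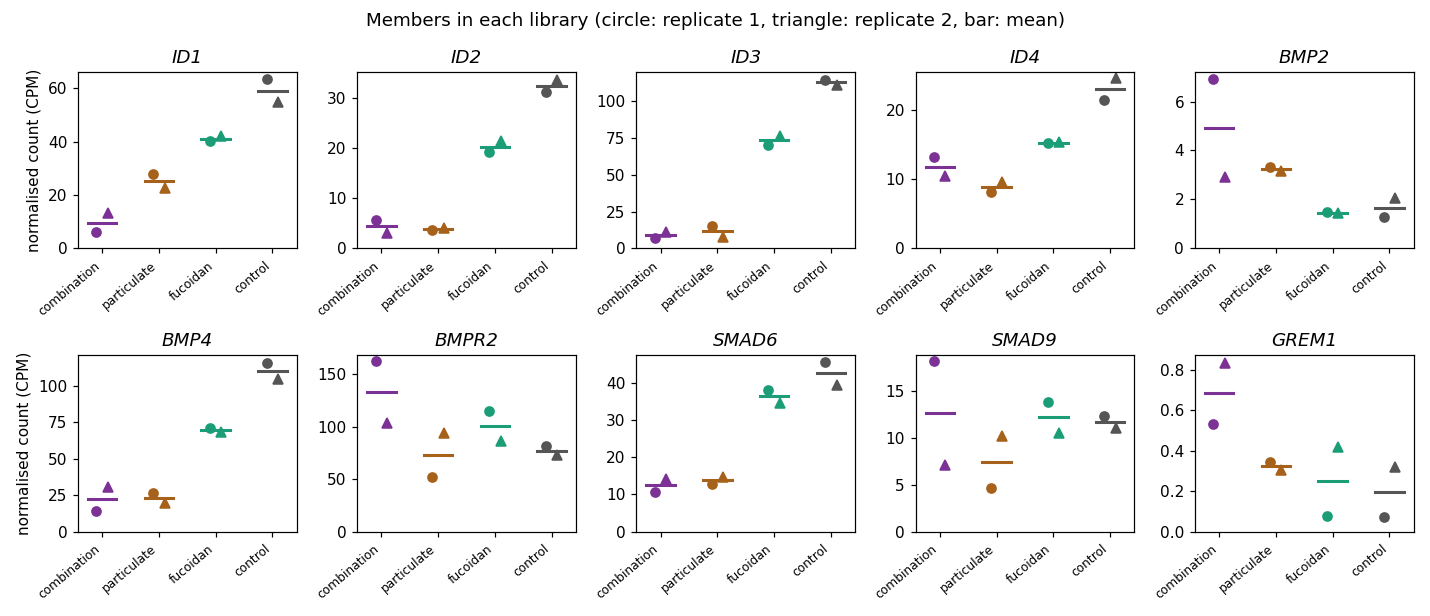
Normalised counts (CPM, linear axis from 0) of the 10 genes in the 8 libraries, with groups from left to right in the order combination, particulate, fucoidan, control. Circles are replicate 1, triangles replicate 2 and bars the mean of 2. ID2, ID3, BMP4 and SMAD6 split by the presence of particulate, ID1 and ID4 fall in 4 separate levels, and the 2 combination libraries lie far apart for ID1, BMP2, BMP4 and SMAD9.

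The ligand BMP4 (ENSG00000125378, chr14:53949736-53958761) was abundant in control, at 129 ± 13.5 TPM (SD), and fell with particulate. BMP4 had 14.1 and 30.9 CPM in the combination, 26.6 and 19.4 CPM with particulate, 71.0 and 68.2 CPM with fucoidan, and 116 and 104.5 CPM in control. The libraries with particulate did not overlap with those without it. BMP4 fell by 2.26 ± 0.32 in particulate against control, 4.79-fold lower (adjusted p = 0.00121, edgeR).

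BMP2 (ENSG00000125845, chr20:6767664-6780280), a ligand that uses the same receptors, was scarce and lay the other way. BMP2 had 6.93 and 2.90 CPM in the combination, 3.34 and 3.18 CPM with particulate, 1.48 and 1.44 CPM with fucoidan, and 1.27 and 2.05 CPM in control. All 4 libraries with particulate were above all 4 without it. The log2 fold change in particulate against control was 0.96 ± 0.43 and did not pass (adjusted p = 0.149, edgeR). BMP2 passed with only the control and particulate libraries in the fit, with no filter, and without combination replicate 1 or combination replicate 2 (adjusted p from 0.0200 to 0.0319 over these 4). At 1.69 TPM against 129 TPM in control, BMP2 was far below BMP4 per length.

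BMPR2 (ENSG00000204217, chr2:202376936-202567751), the type II receptor for BMP ligands, had no settled place. BMPR2 had 163 and 103 CPM in the combination, 51.9 and 94.0 CPM with particulate, 115 and 86.1 CPM with fucoidan, and 81.7 and 72.6 CPM in control. Particulate replicate 1 lay below both control libraries and replicate 2 above both. The log2 fold change in particulate against control was -0.08 ± 0.30 (adjusted p = 0.875, edgeR).

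SMAD6 (ENSG00000137834, chr15:66702228-66782848), the inhibitory SMAD that acts mainly on BMP receptors, fell with particulate. SMAD6 had 10.6 and 14.3 CPM in the combination, 12.9 and 14.8 CPM with particulate, 38.2 and 34.6 CPM with fucoidan, and 45.7 and 39.4 CPM in control. The 4 libraries with particulate lay within a narrow range, well under the other 4. SMAD6 fell by 1.62 ± 0.20 in particulate against control, 3.07-fold lower (adjusted p = 0.000561, edgeR).

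SMAD9 (ENSG00000120693, chr13:36844831-36920765), which encodes a receptor-activated SMAD also called SMAD8, differed 2.55-fold between the combination libraries and 2.21-fold between the particulate libraries. Replicates differed 1.32-fold with fucoidan and 1.11-fold in control, and group means ran from 7.41 to 12.7 CPM. SMAD9 had 18.2 and 7.13 CPM in the combination, 4.61 and 10.2 CPM with particulate, 13.9 and 10.5 CPM with fucoidan, and 12.3 and 11.1 CPM in control. Its log2 fold change in particulate against control was -0.66 ± 0.45 (adjusted p = 0.334, edgeR). GREM1 (ENSG00000166923, chr15:32717974-32745107), a secreted protein that binds and blocks BMP2 and BMP4, was near the limit of detection. GREM1 had 8 and 15 reads in the combination, 6 and 5 with particulate, 1 and 7 with fucoidan, and 1 and 5 in control. With 48 reads in all, it did not pass the filter on low counts and was not tested. Its exons overlap AC090877.2 on the opposite strand, so reads of that gene may be included.

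Of the 9 genes that passed the filter, 6 fell and 0 rose in particulate against control. Over all genes tested, 11.5% were called lower and 9.11% higher in that comparison (20.6% either way). The 2 groups did not overlap for 8 of the 9, 7 lower and 1 higher with particulate, against 32.3% and 32.7% of all genes. The median log2 fold change was -1.37 over the 9 genes and 0.01 over all 15010. ID2, ID3, ID4, BMP4 and SMAD6 kept their call in all 18 alternative fits. Of 10 pigment epithelium markers tested in the same comparison, 8 also fell and BEST1 rose (2.72 CPM with particulate and 0.514 CPM in control). Their sum, most of it the keratins KRT8 and KRT18, was 1462 to 1659 TPM with particulate against 2615 to 2941 TPM in control. Of the 2 Mueller glia markers tested GLUL fell, and the sum of that list was 4607 to 4723 TPM against 5444 to 5520 TPM. Of 4 fibroblast markers PDGFRB alone reached 1 TPM, and their sum was 10.8 to 13.7 TPM with particulate against 108 to 133 TPM in control. The part of these markers in the results was not tested.

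The particulate was also compared in the presence of fucoidan, where ID1, ID2, ID3, BMP4 and SMAD6 fell. In combination against fucoidan, ID1 fell by 2.08 ± 0.30 (adjusted p = 0.00175), ID2 by 2.22 ± 0.27 (adjusted p = 0.000756), ID3 by 2.98 ± 0.31 (adjusted p = 0.000337), BMP4 by 1.62 ± 0.31 (adjusted p = 0.00704) and SMAD6 by 1.55 ± 0.20 (adjusted p = 0.000984), all by edgeR. BMP2 rose, with a log2 fold change of 1.74 ± 0.43 (adjusted p = 0.0214, edgeR). ID4 did not pass, at -0.37 ± 0.19 (adjusted p = 0.194, edgeR), nor did BMPR2 (0.40 ± 0.30) or SMAD9 (0.05 ± 0.45). The call rate was thus 5 of 9 lower against 10.6% of all genes, and 1 of 9 higher against 10.2% (20.7% either way). The median was -1.55 over the 9 genes and 0.03 over all tested. The BMP2 call was lost without fucoidan replicate 1, fucoidan replicate 2 or combination replicate 1 (adjusted p up to 0.135) and in a fit of only the fucoidan and combination libraries. The BMP4 call was lost without fucoidan replicate 1 (adjusted p = 0.0504).

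The combination was also set against control, a comparison that shares its libraries with those above. ID1 fell by 2.61 ± 0.30 (adjusted p = 0.00074), ID2 by 2.90 ± 0.27 (adjusted p = 0.000275), ID3 by 3.60 ± 0.31 (adjusted p = 0.000214), ID4 by 0.97 ± 0.19 (adjusted p = 0.0105), BMP4 by 2.29 ± 0.32 (adjusted p = 0.00186) and SMAD6 by 1.77 ± 0.20 (adjusted p = 0.00061), by edgeR. For ID3 this was a 12.2-fold lower level. BMP2 rose by 1.54 ± 0.43 (adjusted p = 0.0363, edgeR). In all, 6 of 9 were called lower against 8.86% of all genes, and 1 of 9 higher against 8.17% (17% either way). BMPR2 had a log2 fold change of 0.79 ± 0.30 (adjusted p = 0.0975) and SMAD9 of 0.11 ± 0.45 (adjusted p = 0.884). The BMP2 call was lost in 9 of 17 alternatives, namely with a replicate block, with only the libraries compared, and without any 1 library other than combination replicate 2 (adjusted p up to 0.254). The ID4 call was lost without either control library (adjusted p up to 0.107) and in the fit of only the libraries compared.

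**Figure D2:**
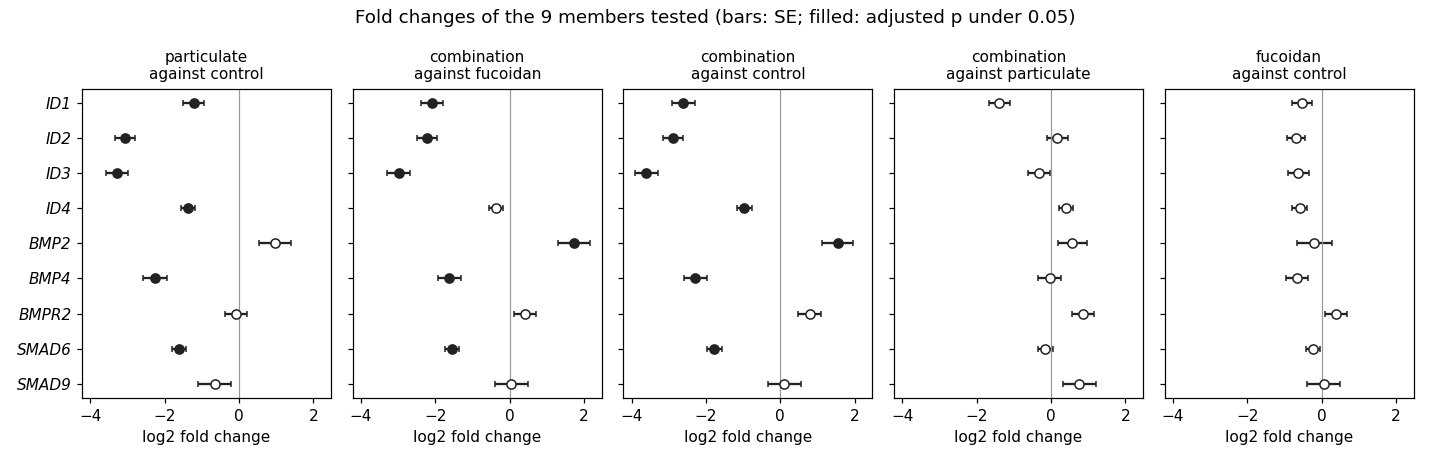
Log2 fold changes of the 9 genes tested in 5 comparisons, with bars for the SE of edgeR's fit of all 8 libraries. Filled points passed an adjusted p of 0.05 and open points did not. ID1, ID2, ID3, BMP4 and SMAD6 are filled and left of 0 in the 3 comparisons of a group with particulate against one without, and no point is filled in combination against particulate or fucoidan against control.

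Fucoidan alone went with lower values of all 4 ID genes and of BMP4, by amounts that the fit of all 8 libraries did not call. The levels above show the order: each of ID1, ID2, ID3, ID4, BMP4 and SMAD6 was lower in both fucoidan libraries than in both control libraries, and BMPR2 was higher in both. Non-overlapping groups were common among all genes, at 24.8% lower and 23.2% higher, against 6 lower and 1 higher of 9 here. The log2 fold changes were -0.52 ± 0.28 for ID1, -0.68 ± 0.24 for ID2, -0.62 ± 0.28 for ID3, -0.59 ± 0.19 for ID4, -0.66 ± 0.30 for BMP4 and -0.23 ± 0.19 for SMAD6, with adjusted p from 0.925 to 0.999 (edgeR). That fit called 0 of the 9 genes and 0% of all 15010. At an unadjusted p under 0.05 it had 3 of the 9 and 662 of all genes (4.41%), and DESeq2 called 0 of the 9 and 0.153% of all genes.

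The spread in this comparison depended on which libraries entered the fit. Fitted to the fucoidan and control libraries alone, edgeR called 849 of 14389 genes (5.9%). ID1, ID2, ID3, ID4 and BMP4 were then lower, by 0.51, 0.66, 0.61, 0.58 and 0.65 on the log2 scale (adjusted p = 0.00216, 0.000332, 6.15e-05, 0.00374 and 2.34e-05 in that order), and BMPR2 was higher, by 0.39 (adjusted p = 0.0266). The shares over all genes in that fit were 2.61% lower and 3.29% higher. limma-voom with sample quality weights, which gives the more variable libraries less weight, called ID2, ID3, ID4 and BMP4, and 2.09% of all genes. For these genes the fold changes of the edgeR fits lay close together, and the calls differed.

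Adding fucoidan to particulate gave no called difference in any of the 9 genes, and ID1 lay further from control in the combination than with particulate alone. ID1 had 6.20 and 13.1 CPM in the combination against 28.0 and 22.7 CPM with particulate, a log2 fold change of -1.38 ± 0.29 that did not pass (adjusted p = 0.155, edgeR). The call rate of this comparison was low: 0 of 9 here, and 0.0866% of all genes (13 of 15010, 0.0799% higher and 0.00666% lower), while 2 of 9 and 17.3% of all genes had an unadjusted p under 0.05. DESeq2 called ID1 alone of the 9 (adjusted p = 0.000473), and 2.41% of the 12682 genes to which it gave an adjusted p. The others had log2 fold changes of 0.18 for ID2, -0.32 for ID3, 0.40 ± 0.20 for ID4, 0.58 for BMP2, -0.03 for BMP4, 0.87 ± 0.30 for BMPR2, -0.15 for SMAD6 and 0.77 ± 0.45 for SMAD9. ID4 and BMPR2 were higher in both combination libraries than in both particulate libraries, ID1 was lower in both, and the remaining 6 overlapped. Over all genes 20.9% lay apart higher and 20.4% lower.

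The 2 combination libraries decided much of this comparison. Of the 9 genes, 4 differed at least 2-fold between them (ID1, BMP2, BMP4 and SMAD9, at most 2.55-fold), against 1 between the particulate libraries (SMAD9, 2.21-fold) and 0 between the fucoidan or control libraries. With combination replicate 2 left out, so that replicate 1 stood alone and was assumed to vary like the other groups, ID1 (-2.04) and BMP4 (-0.71) were called lower and BMP2 (1.08), BMPR2 (1.15) and SMAD9 (1.30) higher, in a fit that called 20.9% of all genes. With combination replicate 1 left out, 0 of the 9 were called and 0.382% of all genes, and ID1 was at -0.95 (adjusted p = 0.0998, edgeR).

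The interaction, the particulate effect with fucoidan minus that without it, was not called for any of the 9 genes, nor for any of the 15010 (0%). At an unadjusted p under 0.05 it had 668 genes (4.45%), among them ID2 (0.85 ± 0.37) and ID4 (1.00 ± 0.27), and DESeq2 called 0 of the 8 members to which it gave an adjusted p. ID1 lay the other way, at -0.86 ± 0.40, and all 9 adjusted p-values were 0.897 or more (edgeR). Without combination replicate 2, ID1 (-1.52, adjusted p = 0.0134), ID2 (1.24, adjusted p = 0.0263) and ID4 (1.15, adjusted p = 0.028) were called, with 5.56% of all genes.

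A list of 10 glycolysis and hypoxia genes, such as the hexokinase HK2, differed within the same pairs of libraries. Its summed level was 9740 and 2145 TPM in the combination, 2429 and 5029 TPM with particulate, 5648 and 5476 TPM with fucoidan, and 4783 and 4488 TPM in control, with all 10 genes at 1 TPM or more in each group. HK2 had 672 and 52.1 CPM in the combination and 91.2 and 315 CPM with particulate, against 50.3 and 51.4 CPM with fucoidan and 59.7 and 51.4 CPM in control. In both pairs with particulate, the library with the higher list, combination replicate 1 and particulate replicate 2, had the lower ID1, ID3 and BMP4 and the higher BMPR2 and SMAD9. ID2 and ID4 were also higher in those 2 libraries than in their replicates, and BMP2 and SMAD6 went different ways in the pairs. The part of these genes in the results was not tested. ID1, ID2, ID3, ID4, BMP4 and SMAD6 were lower than in both control libraries also in the library of each pair with the lower list. In that list these libraries, at 2145 and 2429 TPM, lay below both control libraries, so the comparison was not matched for it.

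**Figure D3:**
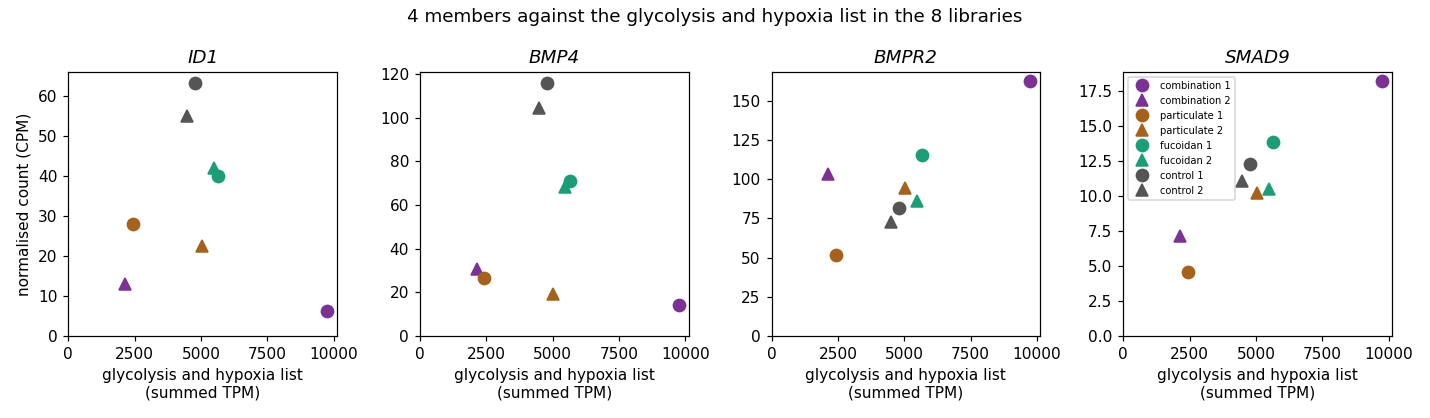
Normalised counts (CPM) of ID1, BMP4, BMPR2 and SMAD9 against the summed TPM of 10 glycolysis and hypoxia genes in the 8 libraries, with colours for groups and circles and triangles for replicates 1 and 2. Combination replicate 1 lies at the far right at 9740 TPM, with the lowest ID1 and BMP4 and the highest BMPR2 and SMAD9 of the 8 libraries.

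Beyond the 10 genes, a list of 59 other genes of the pathway had 37 genes that passed the filter. In particulate against control 5 of them rose and 9 fell, where 9.11% of all genes tested rose and 11.5% fell. The median was -0.02 (log2) for the 37 and 0.01 for all genes, so the median lay near that of all genes. Among 13 other ligands 5 were tested and BMP6 fell. Of 11 inhibitors and binding proteins tested, 6 fell (FSTL1, CRIM1, FSTL3, CHRDL1, BAMBI and FST) and NOG rose. Of 6 receptors and co-receptors tested, BMPR1B and ACVR1, both type I receptors, rose and none fell. Of 6 SMAD and SMURF genes tested, SMURF2 rose and none fell, and of 6 further targets ATOH8 fell and MSX1 rose. Of the 3 E-protein genes, the partners of ID proteins, TCF4 fell. The calls of BAMBI, ACVR1, NOG, TCF4, FST and MSX1 were each lost when either control library was left out. The number called in the list also changed in fits that left out 1 library. No share of all genes is given beside those fits, so the change cannot be read as a result about the list.

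ATOH8, a helix-loop-helix transcription factor gene induced by BMPs in endothelium and liver, had a larger fold change than any of the 10 genes. ATOH8 had 2.60 and 6.35 CPM in the combination, 3.11 and 1.47 CPM with particulate, 43.2 and 43.4 CPM with fucoidan, and 60.3 and 56.3 CPM in control. It fell by 4.66 ± 0.41 in particulate against control (adjusted p = 9.86e-05), and fell by 3.25 ± 0.38 in combination against fucoidan (adjusted p = 0.000644) and by 3.68 ± 0.38 in combination against control (adjusted p = 0.000461), by edgeR.

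FSTL1 and CRIM1, 2 binding proteins with high levels, fell as well, but not all of the inhibitors did. TWSG1 averaged 112 CPM in control and 108 CPM with particulate, and NBL1 93.9 and 92.6 CPM, and neither was called. NOG rose with particulate, and by 1.25 in combination against fucoidan (adjusted p = 0.00221, edgeR). FSTL1, a secreted glycoprotein that binds BMPs, averaged 1289 ± 72.5 CPM with particulate and 3818 ± 99.6 CPM in control (SD), a log2 fold change of -1.57 ± 0.14 (adjusted p = 9.45e-05, edgeR). CRIM1, a membrane protein that binds BMPs, averaged 272 ± 76.1 CPM and 1170 ± 11.6 CPM in those groups, a log2 fold change of -2.10 ± 0.20 (adjusted p = 0.000159, edgeR). Both overlap other genes' exons on the opposite strand, as does SMURF2. In combination against fucoidan FSTL1 fell by 1.01 ± 0.13 (adjusted p = 0.00128), and in combination against control FSTL1 fell by 1.11 ± 0.13 (adjusted p = 0.000991) and CRIM1 by 1.46 ± 0.20 (adjusted p = 0.00181), by edgeR.

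BMP6, a ligand of the pathway that regulates hepcidin in the liver, lay on opposite sides of control in the fucoidan and particulate groups. BMP6 had 5.46 and 4.63 CPM in the combination, 3.98 and 4.28 CPM with particulate, 23.7 and 20.2 CPM with fucoidan, and 11.5 and 10.7 CPM in control. It fell by 1.42 ± 0.20 in particulate against control (adjusted p = 0.0014) and by 2.12 ± 0.20 in combination against fucoidan (adjusted p = 0.000215), by edgeR. In fucoidan against control its log2 fold change of 0.99 did not pass in the fit of all 8 libraries (adjusted p = 0.38), and it passed with only the libraries compared (adjusted p = 3.14e-06), by limma-voom with quality weights (0.00206), with no filter (0.0259) and without combination replicate 1 (adjusted p = 0.0356) or 2 (adjusted p = 0.0346).

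SMURF2, a ubiquitin ligase that targets BMP and TGF-beta pathway proteins, averaged 85.7 ± 6.71 CPM with particulate and 44.4 ± 3.87 CPM in control (SD), a log2 fold change of 0.95 ± 0.15 (adjusted p = 0.00266, edgeR). It also rose in combination against fucoidan (1.03 ± 0.15, adjusted p = 0.00217) and against control (1.08 ± 0.15, adjusted p = 0.00231). FSTL3, a follistatin-like binding protein, fell by 1.00 ± 0.18 (adjusted p = 0.00421) and CHRDL1, a chordin-like BMP antagonist, by 0.75 ± 0.15 (adjusted p = 0.00838) in particulate against control, while BMPR1B rose by 1.64 ± 0.30 (adjusted p = 0.00494). Without control replicate 1 the particulate calls of SMURF2 (adjusted p = 0.0568), FSTL3 (0.0551), BMPR1B (0.0756) and CHRDL1 were lost. CHRDL1 was also lost without control replicate 2 or particulate replicate 1, and the SMURF2 call in combination against control without control replicate 1 (adjusted p = 0.0568).

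In the other comparisons the wider list had 8 higher and 8 lower of 37 in combination against fucoidan (median 0.23), 6 higher and 5 lower in combination against control (median 0.28), and 0 in fucoidan against control, combination against particulate and the interaction. Over all genes these medians were 0.03 and 0.02, with 10.2% and 8.17% called higher and 10.6% and 8.86% called lower. The numbers called in the combination against fucoidan, control or particulate also changed in fits that left out 1 library. No share of all genes is given beside those fits, so the changes cannot be read as results about the list. At an unadjusted p under 0.05, edgeR had 7 of 37 in fucoidan against control, 11 in combination against particulate and 5 in the interaction. Over all genes the shares were 4.41%, 17.3% and 4.45% in that order. DESeq2 called 0 of the wider list in each.

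**Figure D4:**
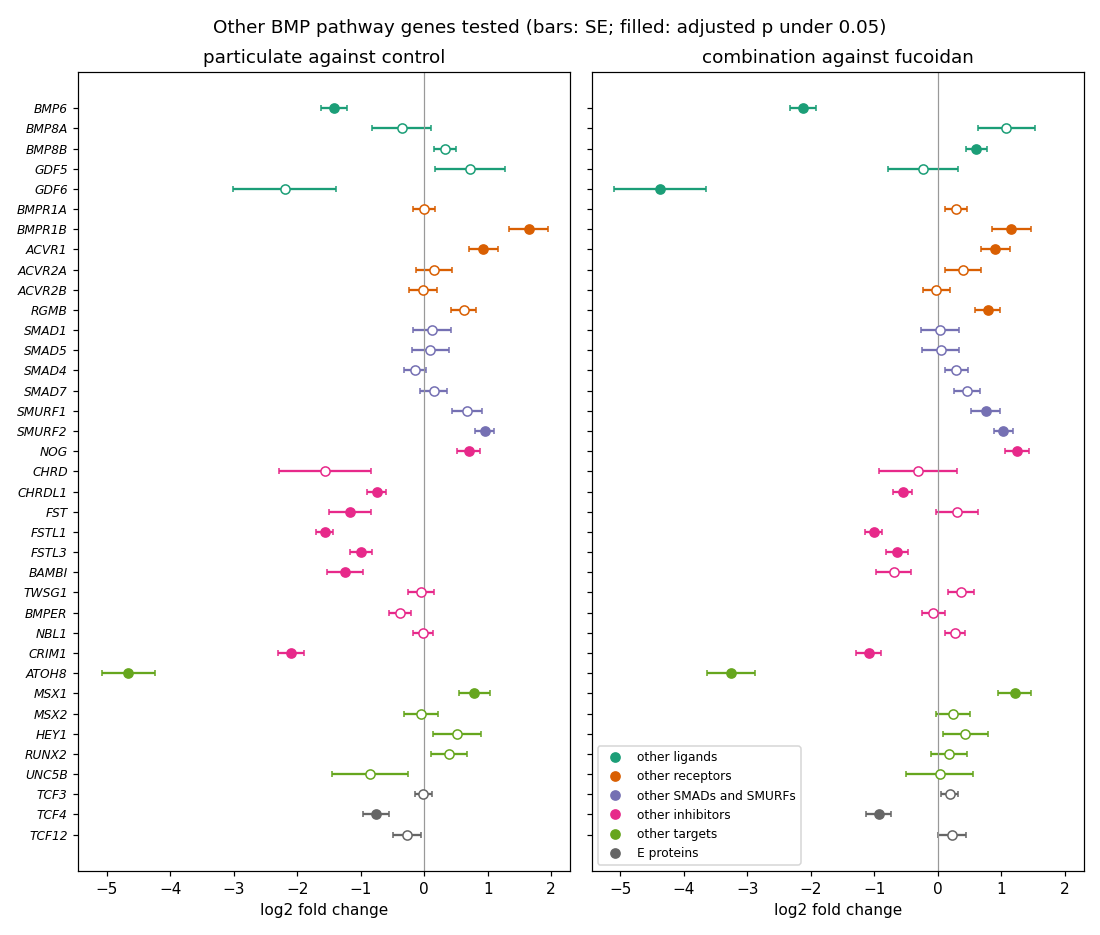
Log2 fold changes of the 37 other pathway genes tested in particulate against control (left) and combination against fucoidan (right), with bars for the SE and colours for the role. Filled points passed an adjusted p of 0.05. ATOH8, FSTL1, CRIM1 and BMP6 are filled left of 0 in both panels, and SMURF2, BMPR1B and ACVR1 filled right of 0 in both.

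The 4 ID genes differed among themselves in which genes they resembled over the 8 libraries. Likeness was the root-mean-square difference of log2 CPM after each gene's own mean was removed, over 10989 genes that averaged 5 CPM or more. The genes nearest to ID1 were LINC02009 (0.30), ALDH1B1 (0.34) and MBNL1-AS1 (0.35), and those nearest to ID2 were RDH10 (0.25), IGFBP5 (0.27) and TM4SF18 (0.30). KRT81 (0.27), PLK2 (0.42) and DOK7 (0.45) were nearest to ID3, and SFRP1 (0.11), MTMR10 (0.12) and SORT1 (0.13) to ID4. Among the tested members themselves the closest pairs were BMPR2 with SMAD9 and BMP4 with SMAD6, both at 0.35, and ID2 with ID3 stood at 0.56. The farthest pair was ID3 with BMP2, at 2.30. These distances also hold the replicate differences of the combination and particulate pairs, which the pairs of genes share.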

How the data were processed

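The authors deposited raw read counts and TPM for each gene, per the file headers. Per the submitters' processing notes, reads were trimmed with fastp 0.20.0, aligned to GRCh38 with HISAT2 2.1.0 and counted with featureCounts of Subread 2.0.1. Per the labels' protocols, the libraries came from a stranded poly(A) kit. No source used here gives the strand setting or the annotation release. The deposited TPM gave levels per length and an alternative fit.

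edgeR 4.0.16 in R 4.3.3 kept 15010 genes (filterByExpr), scaled libraries by TMM and fitted 1 mean per group with glmQLFit and glmQLFTest (common dispersion 0.0288, 4 residual degrees of freedom). The SE came from the log2 fold change and F. Alternatives used DESeq2 1.42.0 and limma 3.58.1 (pseudocounts 1 and 0.1 for TPM). The code was tested on simulated data. The members, lists and tests were chosen with earlier results of these data known. Named were all 10 members, up to 8 called genes of the wider list by adjusted p in particulate against control and up to 4 elsewhere, and the 3 genes nearest to each ID gene. Other called genes of the wider list were named after their values were seen, as were BMP6's fucoidan values.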

Additional observations from a re-analysis of the deposited data

How the results depend on the processing

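Of 956 alternative values of single members, none that was called changed sign, 21 lost a call, 28 gained one and 29 changed sign without being called. No scaling moved the median of all genes by more than 0.0827 (log2). Depth limits GREM1, which was not tested, and BMP2 at a few CPM.

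In fucoidan against control, 4 members were called by limma-voom with quality weights and 6 with only the libraries compared, against 0. Of all genes tested, these fits called 2.09% and 5.9%. The wider list had 1 with no filter, 4 by limma-voom and 10 with only the libraries compared. In combination against particulate, DESeq2 called 1 member, and 2.41% of the genes to which it gave an adjusted p. With no filter, 2 members and 6 of the wider list were called. For the wider list, combination against fucoidan had 10 under either TPM pseudocount and 8 with only the libraries compared, against 16. Combination against control had 5 with only the libraries compared, against 11, and the interaction 2 with no filter. No share of all genes is given for the remaining settings here, so their counts cannot be set against it.

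Leaving out 1 library at a time gave 0 to 5 members and 0 to 13 wider genes in combination against particulate, and 0 to 3 of each in the interaction. The wider list ranged from 4 to 18 in particulate against control, 0 to 1 in fucoidan against control, 6 to 18 in combination against fucoidan and 3 to 17 in combination against control. Members ranged from 5 to 7, 0 to 0, 4 to 6 and 5 to 8 in those comparisons. In combination against particulate, the share of all genes called also changed between these fits. That share is not given beside the counts here, so they cannot be read as results about the members or the wider list. The causes were not tested.

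With the replicate number as a block (replicate block), members called were 6, 0, 0, 6, 6 and 0 in particulate against control, fucoidan against control, combination against particulate, combination against fucoidan, combination against control and the interaction, against 6, 0, 0, 6, 7 and 0 without it. The wider list had 12, 0, 0, 13, 11 and 0. No share of all genes is given for the fit with the block, so its counts cannot be set against it. The call lost was BMP2 in combination against control. Between groups, the replicate differences had correlations of -0.25 to 0.0754. The submitters do not say whether same-numbered libraries shared a passage or day, and such pairing was not tested.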
